A study of Mus musculus with 4 samples.

Results

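The LPS response described here is the difference in transcript level between 2 cultures of wild-type resident peritoneal macrophages, one exposed to lipopolysaccharide (LPS), the endotoxin of the outer membrane of Gram-negative bacteria, and the other not. Resident peritoneal macrophages are long-lived phagocytes of the abdominal cavity. All mice had the C57BL/6 background. After isolation the cells spent 2 days in RPMI medium with 10% fetal bovine serum, and the stimulated culture then received LPS at 100 ng/mL for 1 day. RNA was labelled with Cy3 and hybridised to 1-colour Agilent mouse arrays. The series holds 4 arrays, 1 for each genotype (wild type and CD163-deficient) and condition (LPS or none), and the response rests on the 2 wild-type arrays. CD163 is a scavenger receptor for haemoglobin complexes, and the pair of arrays labelled as deficient in it is given beside the wild-type values where useful. The labels do not state how many mice gave cells to a culture, and all 4 arrays shared a slide. Since each group is 1 array, no difference below has a replicate check, an error between cultures or a p-value, and every statement gives a size alone. Of 30222 genes and transcripts on the array, 26716 were well above background on at least 1 of the wild-type arrays and were compared, and 26170 were compared in the CD163-deficient pair.

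LPS is carried by CD14 to MD-2 (gene Ly96) and Toll-like receptor 4, which signals through the adaptors MyD88 and TRIF. The MyD88 branch activates NF-kB and mitogen-activated protein kinases and with them cytokine genes. The TRIF branch activates IRF3 and the gene for interferon beta, and secreted interferon then acts through its receptor and JAK kinases on a large set of interferon-stimulated genes. All 12 general macrophage markers, such as Csf1r, Adgre1 and Cd68, were well above background on both wild-type arrays. So were all 20 markers of large peritoneal macrophages, but also all 15 markers of mesothelial cells and fibroblasts. Of all 30222 genes, 24726 were well above background without LPS and 26535 with it, so detection alone does not separate cell types here.

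On the 4 arrays the processed intensity had its 75th percentile between 909.6 and 1324.7, and between 24726 and 26535 genes were well above background on each. Saturation was not reached by any spot. A level below is the log2 intensity of a gene's probe minus that percentile of the same array, so that 0 stands for the percentile and a difference of 1 for 2-fold. Levels are compared within a probe across arrays and not between genes. A probe with 10 spots had a median standard deviation between 0.09 and 0.11 (log2) over its spots on an array, which measures the printing and hybridisation of 1 array and not the spread between cultures. On that scale Cd163, the targeted gene, stood at -5.47 without LPS and -5.01 with it in wild type and at -6.00 without LPS and -5.48 with it in the deficient cells, low on all 4 arrays, so that its probe gave little separation of the genotypes. Whether the probe lies in the deleted stretch is not given in the sources used here.

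Of the 26716 genes compared, 1718 (6.43%) were at least 2-fold higher with LPS and 1366 (5.11%) at least 2-fold lower. At 4-fold the numbers were 519 (1.94%) and 278 (1.04%), and at 8-fold they were 182 and 50. Thus 65.1% of the genes 4-fold apart were higher with LPS, and 77.8% with normexp background correction. That correction gave 1054 and 975 genes at 2-fold and 372 and 106 at 4-fold, higher and lower. For the bulk of genes the levels were close: 23632 (88.5%) lay within 2-fold, and the median difference was 0.00 (5th percentile -1.01, 95th percentile 1.17). In these counts 258 of the 1718 and 146 of the 1366 genes were well above background on 1 array alone, and their fold is a lower bound. Among the 14098 genes that reached a level of -2 on at least 1 wild-type array, 439 were higher by 4-fold or more and 179 lower. In total RNA of a whole culture, fewer cells of a type and less RNA per cell cannot be told apart.

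**Figure D1:**
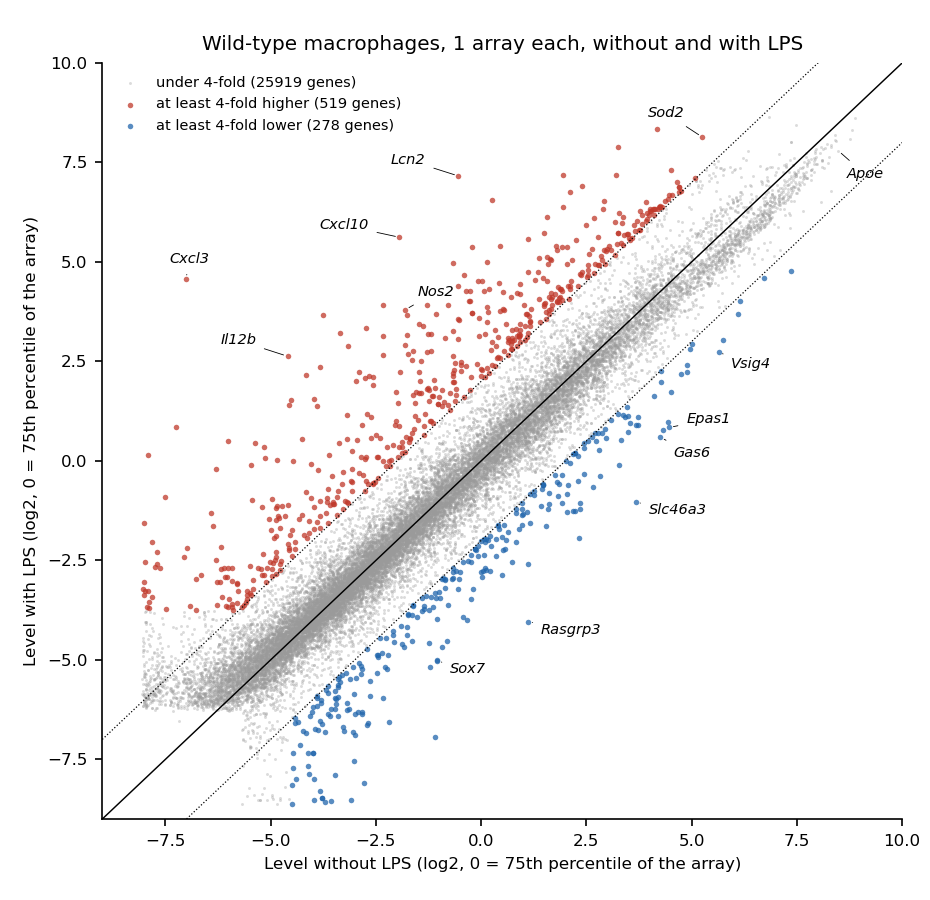
Level of each gene compared (26716 points) on the wild-type array without LPS (x axis) and with LPS (y axis), in log2 with 0 at the 75th percentile of the array; the solid line marks equal levels and the dotted lines 4-fold. The 519 genes at least 4-fold higher are red and the 278 at least 4-fold lower are blue, counted with the bound where a gene was well above background on 1 array, so that some dim grey points lie outside the dotted lines.

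Other probes of the same gene and the second pair of arrays give 2 checks on these sizes. For 5538 genes with several probes well above background on both arrays, the probes lay on the same side of 0 in 63.6%, and the median range between them was 0.37. Among 112 such genes at least 4-fold higher by their brightest probe the probes had the same sign in 77.7%, and in 56.2% every probe was at least 2-fold higher. For the 58 genes at least 4-fold lower these shares were 89.7% and 55.2%. With the cut at 2-fold, every probe passed 2-fold in 45.2% of 363 higher genes and in 36.6% of 317 lower ones. The CD163-deficient pair shares no array with the wild-type pair. Of 439 genes of level -2 or more that were at least 4-fold higher in wild type, 438 were at least 2-fold higher in that pair, where 6.98% of all genes were. All 179 genes of such level that were at least 4-fold lower in wild type were at least 2-fold lower there, where 5.45% of all genes were. Of dimmer genes 49 of 71 of the first kind and 37 of 66 of the second passed 2-fold the same way, and 4 and 5 passed it the opposite way. At 2-fold, the cut of the group counts below, fewer genes repeated. In the CD163-deficient pair 1137 of 1674 higher genes (67.9%) and 877 of 1277 lower genes (68.7%) passed 2-fold the same way. Of those under a level of -2 on both wild-type arrays 40.6% and 47.5% did.

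**Figure D2:**
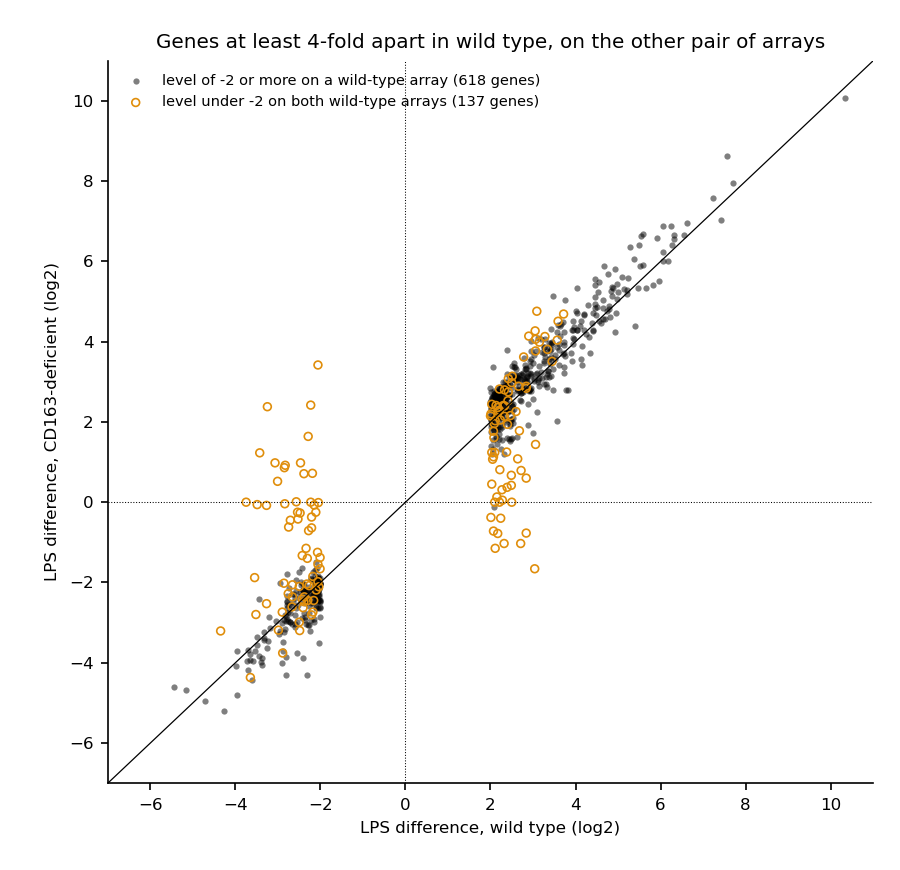
LPS difference (log2) in wild type (x axis) against the CD163-deficient pair (y axis) for the genes at least 4-fold apart in wild type that were compared in both pairs; the line marks equal differences. The 618 genes with a level of -2 or more (black) lie along the line, while the 137 dimmer genes (open orange circles) scatter, 9 of them 2-fold or more to the opposite side.

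Promoter sequence was set beside these sizes because interferon and NF-kB act through short DNA motifs. The 250 bases before the transcription start were taken from RefSeq promoters of the assembly GRCm38.p6, and 15471 of the 26716 genes compared matched a promoter. Stretches of 10 promoters are shown, 5′ to 3′ on the strand of the gene, with the motif matches in capitals. They were picked from genes that were higher with LPS, down to Chac1 at 3.51-fold, and each was required to hold a match. Some of the 20 genes furthest from 0 on the higher side, such as Lcn2, Il1b and Cxcl9, held no match to any motif searched. The motifs are the interferon-stimulated response element core (AAANNGAAA), the kB core (GGANTTTCC), the gamma-activated site (TTCNNNGAA) and the C/EBP-ATF response element (TGATGNAA), all searched on both strands. In Ifit1, Ifit3, Isg15, Cxcl10 and Irgm2 the capitals include the response element core, and in Isg15 and Cxcl10 also a kB core. The Isg15 run holds 3 overlapping matches to the response element core, followed by the kB core, and Irgm2 holds a gamma-activated site and then the response element core. Cxcl1, Cxcl2 and Il6 show the kB core. Slc7a11 and Chac1 show the C/EBP-ATF element.
Ifit1, chr19:34640765-34640832 (+): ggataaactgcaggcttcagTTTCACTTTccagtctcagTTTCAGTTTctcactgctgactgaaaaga
Ifit3, chr19:34583353-34583435 (+): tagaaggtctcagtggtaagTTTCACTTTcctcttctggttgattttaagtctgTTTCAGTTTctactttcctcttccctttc
Isg15, chr4:156200831-156200915 (-): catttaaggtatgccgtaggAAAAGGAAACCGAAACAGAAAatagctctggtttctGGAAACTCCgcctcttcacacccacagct
Irgm2, chr11:58214882-58214942 (+): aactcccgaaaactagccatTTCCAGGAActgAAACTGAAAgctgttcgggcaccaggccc
Cxcl10, chr5:92349019-92349121 (-): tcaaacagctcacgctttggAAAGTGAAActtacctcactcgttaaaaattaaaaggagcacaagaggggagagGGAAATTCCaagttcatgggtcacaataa
Cxcl1, chr5:90891155-90891203 (+): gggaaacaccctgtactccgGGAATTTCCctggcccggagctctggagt
Cxcl2, chr5:90903783-90903831 (+): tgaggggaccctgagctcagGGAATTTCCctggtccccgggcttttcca
Il6, chr5:30013051-30013099 (+): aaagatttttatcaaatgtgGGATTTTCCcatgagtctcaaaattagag
Slc7a11, chr3:50443633-50443699 (-): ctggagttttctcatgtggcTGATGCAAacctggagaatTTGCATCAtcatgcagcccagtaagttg
Chac1, chr2:119351029-119351076 (+): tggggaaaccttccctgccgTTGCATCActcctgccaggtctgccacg
Ifit1 and Ifit3, neighbours on chromosome 19, carry the same pair of cores, TTTCACTTT and TTTCAGTTT. Cxcl1 and Cxcl2, neighbours on chromosome 5, carry the same kB core, GGAATTTCC.

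The response element core stood in 24 of 62 promoters of genes at least 16-fold higher (38.7%), in 72 of 322 at least 4-fold higher, which include the former (22.4%), in 84 of 723 between 2-fold and 4-fold higher (11.6%) and in 1098 of 13549 within 2-fold (8.1%). Among genes at least 4-fold lower it stood in 11 of 159 (6.92%), and among all 27025 promoters of the table in 9.52%. The kB core was rarer throughout, at 14.5%, 4.35%, 2.07%, 0.982% and 1.26% of the same groups and 1.05% of all promoters. The AP-1 site (TGANTCA) stood in 19.4% of promoters of genes at least 16-fold higher, 10.9% of those at least 4-fold higher and 6.87% of all promoters. For the gamma-activated site the shares were 14.5%, 11.2% and 7.18%. The C/EBP-ATF element showed no such order (1.61%, 3.42% and 3.53%), and the sterol regulatory element core (TCACNCCAC) was in 0 of 62, 1 of 322 and 1.04%. Matches to such short motifs can overlap, occur by chance and do not show binding.

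**Figure D3:**
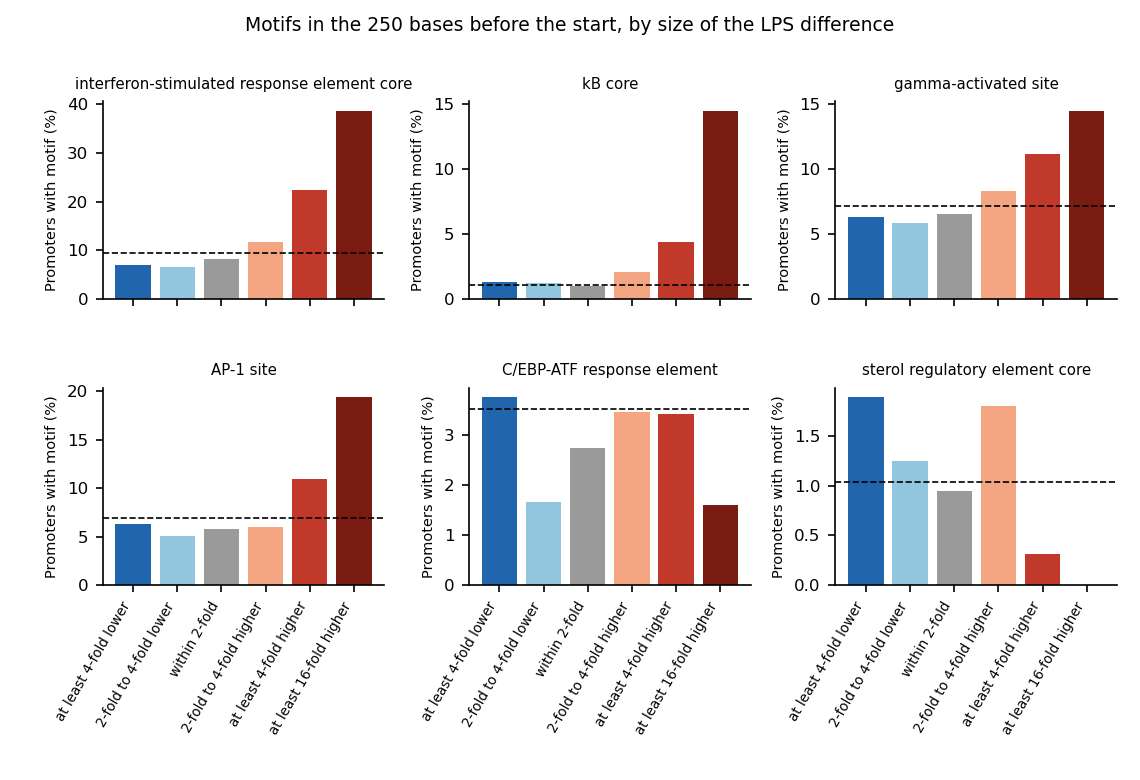
Share of promoters (percent, y axis) with each of 6 motifs in the 250 bases before the start, for genes grouped by the size of their wild-type LPS difference (x axis); the dashed line is the share among all 27025 promoters. The bars of the response element core run from 6.92% in genes at least 4-fold lower to 38.7% in genes at least 16-fold higher, and those of the C/EBP-ATF element do not follow the size classes.

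Gene groups were described by how many of their members compared lay past 2-fold, for which 6.43% (higher) and 5.11% (lower) of all genes is the background, and by their median, for which 0.00 is the background. Over all 26716 genes 88.5% lay within 2-fold, 12973 were higher in level and 13084 lower. The groups and the genes in them were chosen with earlier results of these data known. The receptor complex itself differed little. Tlr4 stood at 0.62 without LPS and 0.57 with it, and Ly96 at 1.91 without LPS and 1.31 with it. Cd14, the co-receptor that loads LPS, stood at 3.75 without LPS and 5.81 with it, 4.19-fold higher. Of 18 genes for Toll-like receptors and their partners 5 were at least 2-fold higher and 1 lower. Tlr2, the receptor of bacterial lipopeptides, stood at 3.03 without LPS and 4.58 with it (2.93-fold higher), and its partner Tlr1 was 2.61-fold higher. Tlr3, which senses double-stranded RNA, was 3.46-fold higher, at -3.81 without LPS and -2.02 with it. The exception was Tlr13, a sensor of bacterial ribosomal RNA, at 4.67 without LPS and 3.17 with it, 2.82-fold lower.

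Adaptors and kinases downstream of the receptors had a median of 0.51, with 9 of 26 genes at least 2-fold higher and 0 lower. The member furthest from 0 was Traf1, a TNF receptor adaptor and an NF-kB target, at 0.43 without LPS and 4.48 with it (16.5-fold higher, difference 4.30 on the CD163-deficient pair). Irak3, also called IRAK-M, a kinase-like protein that blocks the MyD88 complex, stood at 1.50 without LPS and 3.95 with it, 5.46-fold higher. Both kinases that act on IRF3 were higher: Tbk1 by 2.89-fold and Ikbke by 2.71-fold. Myd88 was 2.1-fold higher, while the receptor-proximal Irak4 and Ticam1 (TRIF) lay within 2-fold, at differences of -0.16 and -0.23.

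Among 11 NF-kB subunits and inhibitors 5 were at least 2-fold higher and 0 lower. Nfkbia, the inhibitor IkB alpha that NF-kB itself induces, stood at 4.03 without LPS and 6.01 with it, 3.93-fold higher. Nfkbiz, a nuclear cofactor of NF-kB for secondary genes such as Il6, stood at -2.05 without LPS and -0.43 with it (3.07-fold higher). Of the subunits, Nfkb2 was 2.6-fold higher and Rela, the main activating subunit, was level at 4.50 without LPS and 4.58 with it. The other members past 2-fold were the inhibitors Nfkbib and Nfkbie, 2.64-fold and 2.12-fold higher.

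Transcription factors of the immediate early class were not uniformly higher a day after LPS. Of 19 AP-1, EGR and Maf genes 4 were at least 2-fold higher and 5 were lower by as much. Batf2, an interferon-inducible AP-1 partner, stood at 0.84 without LPS and 3.15 with it (4.93-fold higher). Batf stood at 0.40 without LPS and 2.62 with it (4.65-fold higher). Both are basic leucine zipper proteins that lack an activation domain and work with other factors. On the lower side, Egr2 stood at 3.25 without LPS and 1.18 with it, 4.2-fold lower. Fos was 3.01-fold lower and Jun 2.04-fold lower.

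Genes of the interferon arm included some of the highest folds among factors. Irf7, the factor that amplifies type I interferon production, stood at -0.36 without LPS and 4.28 with it, 25-fold higher. Stat2 and Irf9, which act together downstream of the type I interferon receptor, were 5-fold and 2.05-fold higher. Jak2 stood at 1.19 without LPS and 3.82 with it (6.18-fold higher). Irf1 was 2.75-fold higher. Irf3, which is activated by phosphorylation, stood at 3.04 without LPS and 2.54 with it, and Irf8 at 3.57 without LPS and 3.39 with it. Irf4, a factor linked to alternative activation, was 2.21-fold lower. Over the 20 genes of the group 6 were at least 2-fold higher and 1 lower, with a median of 0.12.

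Among factors of macrophage identity 13 of 33 were at least 2-fold lower, 2 higher, and the median was -0.54 (0.00 over all genes; -0.08 on the CD163-deficient pair). Gata6, the factor that defines large peritoneal macrophages, stood at -0.30 without LPS and -1.37 with it (2.1-fold lower). Sox7 was at -1.04 without LPS and -5.03 with it, 15.9-fold lower, and Epas1, which encodes the hypoxia-inducible factor HIF-2 alpha, at 4.47 without LPS and 0.84 with it, 12.3-fold lower. The other probes of Epas1 gave smaller differences, down to -0.24. Hif1a, its relative, stood at -0.40 without LPS and 1.55 with it and was 3.85-fold higher, although its probes ranged from 0.18 to 1.95. Cebpa was 2.89-fold lower and Cebpb, the C/EBP factor of inflammatory genes, 1.67-fold higher. Klf2, a factor that restrains inflammatory genes, was 3.04-fold lower and Id3, a helix-loop-helix inhibitor, 2.57-fold lower. Of 23 nuclear receptors 2 were at least 2-fold higher and 2 lower. Pparg, a lipid-sensing receptor of alternatively activated macrophages, stood at 0.90 without LPS and -1.71 with it and was 6.11-fold lower. Nr1h3, the oxysterol receptor LXR alpha, stood at 2.87 without LPS and 4.00 with it, 2.19-fold higher.

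Feedback inhibitors differed by gene. Socs3, which blocks signalling of the interleukin 6 receptor, stood at 0.01 without LPS and 4.53 with it, 22.9-fold higher. Socs1, which blocks interferon receptors, stood at -1.74 without LPS and 2.68 with it, 21.4-fold higher. Tnfaip3, the ubiquitin-editing enzyme A20, was 2.82-fold higher and its partner Tnip1 2.47-fold higher. Those were 4 of the 5 genes at least 2-fold higher among 28 brakes, of which 1 was lower, and the median of the list was -0.08. The member past 2-fold on the lower side was Cd200r1, an inhibitory receptor, at 1.91 without LPS and 0.76 with it. Il10, the anti-inflammatory cytokine, was dim on both arrays (-2.93 without LPS and -2.65 with it). Among 12 MAP kinase phosphatases 1 was at least 2-fold higher and 2 lower, and Dusp1, which is induced early after LPS, stood at 0.74 without LPS and 0.88 with it. Of 13 RNA decay factors, Zc3h12a, the endonuclease regnase-1 that cuts cytokine mRNAs, was 2.6-fold higher, whereas Zfp36l1 was 3.2-fold lower, Rc3h1 (roquin-1) 2.38-fold lower and Zfp36l2 2.09-fold lower.

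Secreted proteins held many of the greatest differences. Of 14 CXC chemokines 8 were at least 2-fold higher, 0 were lower, and the median was 2.36 (2.07 on the CD163-deficient pair, and 1.97 with normexp background correction). Cxcl10, which attracts activated T cells through CXCR3, stood at -1.94 without LPS and 5.62 with it, 189-fold higher (difference 7.56, and 8.63 on the CD163-deficient pair). Cxcl9, a ligand of the same receptor, stood at -3.97 without LPS and 1.55 with it, 45.7-fold higher. By contrast Cxcl11 was bright on both arrays and lay within 2-fold, at 7.49 without LPS and 7.22 with it. On the CD163-deficient pair it stood at 7.30 without LPS and 7.29 with it. Whether its probe reads Cxcl11 alone was not tested. The neutrophil-attracting chemokines followed. Cxcl3 was well above background with LPS alone and stood at 4.57 there, at least 1290-fold higher. Cxcl2 stood at -3.16 without LPS and 2.89 with it, 66.3-fold higher. Cxcl1 stood at -1.28 without LPS and 3.93 with it, 36.9-fold higher. These 2, Cxcl3 and Cxcl10 are the 4 of 11 CXC chemokine promoters with a kB core. Cxcl13, a B cell attractant made by peritoneal macrophages, stood at 3.27 without LPS and 6.22 with it (7.71-fold higher). Cxcl12 and Cxcl14, homeostatic chemokines, lay within 2-fold at -0.74 and -0.71.

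Among 15 CC-type and related chemokines 9 were at least 2-fold higher and 1 lower. Ccl5, which attracts T cells and monocytes, was already at 4.18 without LPS and at 8.33 with it, 17.7-fold higher. Ccl12 stood at -2.57 without LPS and 2.11 with it, 25.7-fold higher. Ccl2, the main attractant of monocytes, stood at 2.69 without LPS and 6.11 with it, 10.8-fold higher. Ccl7 shares its receptor CCR2 and was 7.54-fold higher. Ccl3 and Ccl4, the macrophage inflammatory proteins, were 6.17-fold and 2.05-fold higher. Ccl6, bright on both arrays, was 1.72-fold lower, inside the 2-fold range. The member at least 2-fold lower was Cx3cl1 (fractalkine), at -2.86 without LPS and -4.50 with it.

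Of 23 interleukins and interferons 13 were at least 2-fold higher and 0 lower. Il1b, the pyrogen processed by inflammasomes, stood at 0.25 without LPS and 6.56 with it, 79.7-fold higher. Il1a stood at -3.76 without LPS and 3.66 with it, 172-fold higher. Il1rn, the antagonist of the same receptor, stood at -1.45 without LPS and 2.02 with it and was 11.1-fold higher. The 2 chains of interleukin 12, the cytokine that drives type 1 T cell responses, were both higher. Il12b stood at -4.60 without LPS and 2.63 with it, 150-fold higher. Il12a was well above background with LPS alone and stood at -2.04 there, at least 13.1-fold higher. Il6, an inducer of the acute-phase response, stood at -2.34 without LPS and 3.15 with it, 45.1-fold higher. Ifnb1, the interferon beta gene, was near background on both arrays, at -5.50 without LPS and -4.44 with it (2.08-fold higher). Ifng, the interferon gamma gene that T and NK cells are known for, stood at -4.59 without LPS and -1.12 with it, 11-fold higher (difference 5.13 on the CD163-deficient pair). Of 12 markers of T and NK cells on the array Cd3g was not detected, and their summed level on a linear scale was 10.3 without LPS and 8.47 with it. Without Thy1, the brightest, the sum was 5.76 and 5.53. Of the 11 compared 0 were at least 2-fold higher and 2 lower, both NK cell markers. Klrb1c was 2.08-fold lower, and Ncr1, well above background without LPS alone, at least 14.1-fold lower. The part of such cells in the Ifng value was not tested.

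Tnf stood at 0.17 without LPS and 3.74 with it, 11.9-fold higher, and Tnfsf10, the death ligand TRAIL, at -4.72 without LPS and -1.14 with it, 12-fold higher. Of 13 TNF family ligands 6 were at least 2-fold higher and 0 lower. Growth factors split evenly, with 6 of 26 at least 2-fold higher and 6 lower by as much. Inhba, the activin A subunit, stood at 1.56 without LPS and 5.12 with it, 11.8-fold higher. Csf3, the granulocyte colony-stimulating factor, was well above background with LPS alone and stood at -2.30 there, at least 10.9-fold higher. Ereg, a ligand of the EGF receptor, was 5.98-fold higher. The lower members were ligands of tissue growth and repair. Bmp2 stood at -0.66 without LPS and -2.80 with it, 4.41-fold lower. Igf1 stood at 5.21 without LPS and 3.86 with it, 2.54-fold lower, and Vegfb, Hgf, Pdgfb and Tgfb3 were between 2.09-fold and 2.41-fold lower.

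**Figure D4:**
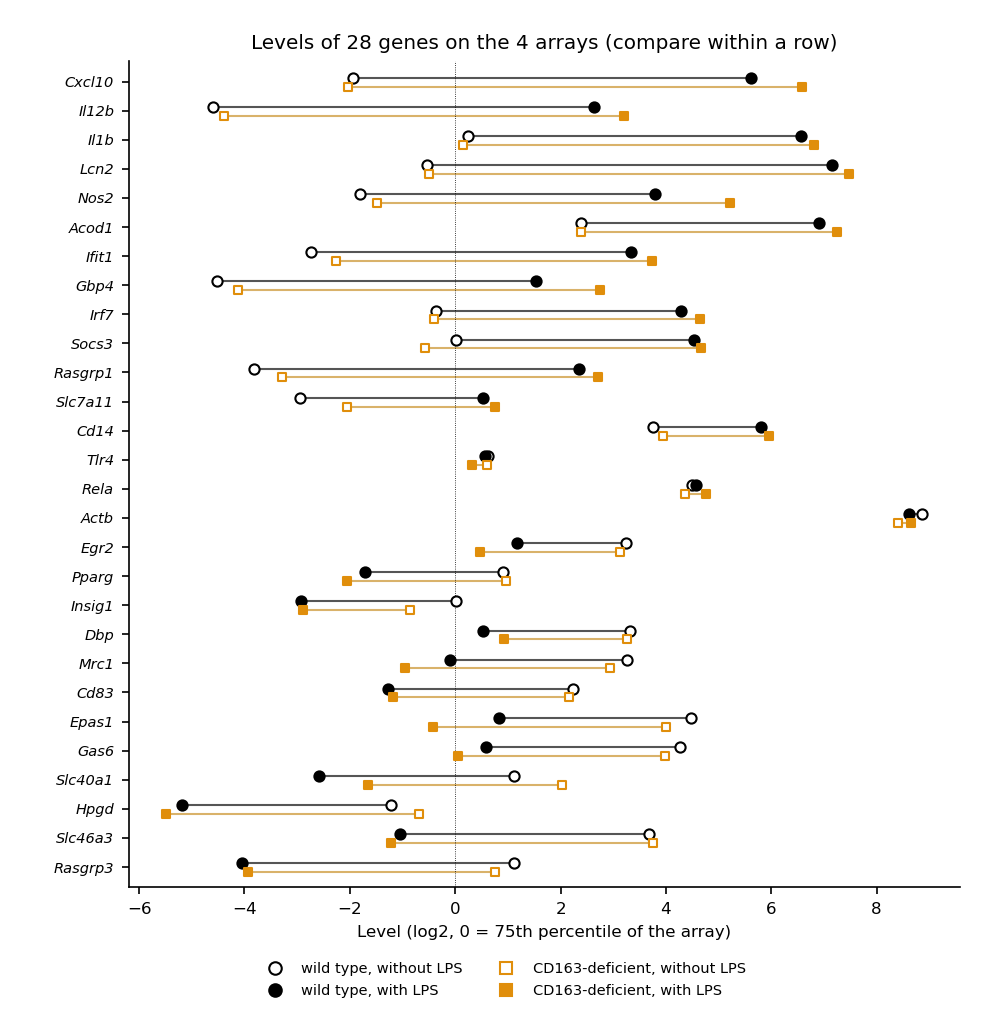
Levels of 28 genes on the 4 arrays (log2, 0 at the 75th percentile of the array), with circles for wild type and squares for CD163-deficient cells, open without LPS and filled with LPS; rows are to be read across arrays and not against each other. In every row past 2-fold the filled symbol lies on the same side of the open one in both genotypes, and for Tlr4, Rela and Actb the symbols nearly coincide.

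Of 25 acute-phase and antimicrobial genes 16 were past 2-fold on the higher side and 0 on the lower, around a median of 1.80. Lcn2, which sequesters the iron carriers of bacteria, had the largest difference among genes well above background on both arrays: -0.54 without LPS and 7.16 with it (209-fold higher). Its probe lies at chr2:32240199-32240258 of mm9. Saa2, a serum amyloid A, was well above background with LPS alone and stood at 0.16 there, at least 60.4-fold higher. Saa3, the form that macrophages make, was bright on both arrays, at 6.83 without LPS and 8.65 with it (3.54-fold higher). Complement factor B (Cfb), the protease of the alternative pathway, stood at 3.25 without LPS and 7.89 with it, 24.9-fold higher. Fpr2 and Fpr1, receptors of formylated bacterial peptides, were 18.9-fold and 9.81-fold higher. Camp, the cathelicidin of neutrophil granules, stood at -2.72 without LPS and 1.18 with it, 14.9-fold higher. S100a8, which pairs with S100a9 in the neutrophil protein calprotectin, was 5.54-fold higher, while S100a9 was level (-4.35 without LPS and -4.31 with it). Of 11 neutrophil markers Ngp was not detected, Camp, S100a8 and Ly6g were at least 2-fold higher, Mpo, Elane, Ltf and Csf3r lay within 2-fold, and the summed level was 63 without LPS and 67.8 with it. Csf3r made up most of that sum, and the other markers summed to 5.89 and 20.6. The part of neutrophils in the Camp and S100a8 values was not tested.

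Genes of nitric oxide, itaconate and the oxidase had 14 of 21 at least 2-fold higher, 1 lower and a median of 1.73. Nos2, the inducible nitric oxide synthase, stood at -1.80 without LPS and 3.80 with it, 48.5-fold higher (5.60 on the log2 scale, and 6.69 on the CD163-deficient pair). Slc7a2, which imports its substrate arginine, stood at -1.38 without LPS and 3.40 with it (27.5-fold higher). Of the enzymes that rebuild arginine from citrulline, Ass1 was 3.33-fold higher and Asl, the next, lay at -0.11. Gch1, which makes the cofactor tetrahydrobiopterin, was 3.39-fold higher. Arg1, the arginase that competes with Nos2 for arginine, stood at 1.27 without LPS and 4.55 with it and was 9.68-fold higher as well. Acod1, which makes itaconate from a Krebs cycle intermediate, stood at 2.39 without LPS and 6.90 with it, 22.8-fold higher. Sod2, the mitochondrial superoxide dismutase, stood at 5.25 without LPS and 8.14 with it, 7.38-fold higher. Cybb, the catalytic subunit of the phagocyte oxidase, was 3.64-fold higher, and Cat (catalase) was 2.37-fold lower.

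Genes of prostaglandins and leukotrienes went both ways. Ptgs2, the inducible cyclooxygenase, stood at -1.18 without LPS and 2.77 with it, 15.5-fold higher, and Ptgs1, the constitutive enzyme, at 2.99 without LPS and 1.39 with it, 3.03-fold lower. Ptges, which makes prostaglandin E2 from their product, was 3.21-fold higher by its brightest probe, with its probes between 1.68 and 4.79 on the log2 scale. Hpgd, the enzyme that degrades prostaglandin E2, stood at -1.22 without LPS and -5.19 with it, 15.7-fold lower. The synthases Ptgis (of prostacyclin) and Hpgds (of its D-type relative) were 2.94-fold and 2.23-fold lower, and Pla2g4a, which releases arachidonic acid, was 2.2-fold higher. Alox12, a lipoxygenase, was dim and 2.78-fold higher (difference 1.47, and 0.22 in the CD163-deficient pair). Alox5, which starts leukotriene synthesis, stood at 2.01 without LPS and -0.01 with it, 4.07-fold lower. Alox5ap was 2.2-fold lower and Ltc4s 2.39-fold lower. In this list 8 of 25 members were at least 2-fold lower and 4 higher.

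The interferon-stimulated genes were the group with the highest shares. Of 18 guanylate-binding proteins and immunity-related GTPases, which attack the vacuoles of intracellular pathogens, 17 were at least 4-fold higher, and Gbp10 was at 0.99. Their median was 3.37 (3.02 with the mean of all probes). Gbp4 stood at -4.52 without LPS and 1.53 with it, 66.2-fold higher. Gbp2 stood at 1.95 without LPS and 6.37 with it, 21.5-fold higher. Irgm1 stood at 0.85 without LPS and 4.21 with it, 10.2-fold higher, and Irgm2, whose promoter is shown above, was 5.14-fold higher. All 10 promoters of this group that could be matched held a response element core, and 6 held a gamma-activated site. Probes of Iigp1 ranged from 3.09 to 6.06 and those of Gbp5 from 0.30 to 4.04, and these genes are close copies of each other, so that a probe may read its neighbours.

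Of 46 antiviral interferon-stimulated genes 41 were at least 2-fold higher, 34 of them at least 4-fold, and 1 was lower. The response element core stood in 15 of the 34 promoters of this list that could be matched (44.1%), and those of Ch25h and Ddx58 held none. Ifi44 stood at -4.16 without LPS and 2.16 with it, 79.6-fold higher. Ifit1, which binds viral RNA caps and whose promoter is shown above, stood at -2.73 without LPS and 3.34 with it, 67.1-fold higher. Its neighbour Ifit3 stood at -0.68 without LPS and 4.98 with it, 50.7-fold higher. Isg15, a ubiquitin-like modifier, stood at 1.95 without LPS and 7.18 with it, 37.5-fold higher. The enzymes that attach and remove it were also higher, Uba7 by 2.94-fold, Ube2l6 by 9.56-fold and the protease Usp18 by 18.3-fold. Rsad2 (viperin) stood at -0.27 without LPS and 4.28 with it, 23.5-fold higher. The RNA sensors Ddx58 (RIG-I) and Ifih1 (MDA5) were 6.48-fold and 4.74-fold higher. Ch25h, which makes the antiviral oxysterol 25-hydroxycholesterol, stood at -1.08 without LPS and 3.69 with it, 27.3-fold higher. Members that did not follow were Ifitm1, at -1.87 without LPS and -2.96 with it (2.13-fold lower), and Ifitm2 at 0.15, while Ifitm3 was 6.98-fold higher.

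Schlafen genes, interferon-responsive regulators of cell growth that lie in a cluster of close copies, were at least 2-fold higher in 7 of 8. Slfn1 stood at -4.57 without LPS and 1.40 with it, 62.5-fold higher. Slfn4 stood at -1.75 without LPS and 3.66 with it, 42.5-fold higher. Among whole families taken by symbol, 6 of 12 poly(ADP-ribose) polymerases were at least 2-fold higher and 0 lower, with a median of 1.29. Of 61 tripartite motif proteins 13 were at least 2-fold higher and 1 lower.

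Antigen presentation split between the classes. Of 26 genes of class I and peptide loading 17 were at least 2-fold higher and 0 were lower in level, with a median of 1.47. The peptide transporter Tap1 stood at -0.68 without LPS and 1.98 with it, 6.31-fold higher. The immunoproteasome subunits Psmb8, Psmb9 and Psmb10, which trim peptides for class I, were 4.12-fold, 3.14-fold and 2.7-fold higher. The classical heavy chains were bright on both arrays and differed less. H2-K1 stood at 7.35 without LPS and 8.01 with it, H2-D1 at 7.34 without LPS and 7.55 with it and B2m, their light chain, at 7.06 without LPS and 7.36 with it. Class I heavy chains are near-identical copies, so a probe may read several of them. Of 16 class II and lysosomal genes 3 were at least 2-fold higher and 0 lower. H2-Ab1 was at 0.76, H2-Aa at -0.64, H2-Eb1 at -0.68 and the class II activator Ciita at -0.31, all within 2-fold. Cd1d1, which presents lipids to NKT cells, stood at 0.92 without LPS and 4.44 with it and was 11.5-fold higher.

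Costimulatory and checkpoint ligands were past 2-fold in both directions, 11 of 19 higher and 2 lower. Cd274, the checkpoint ligand PD-L1, stood at 1.37 without LPS and 5.09 with it, 13.2-fold higher. Cd40, which receives help from T cells, stood at 0.23 without LPS and 2.79 with it, 5.87-fold higher. Cd86, a ligand of CD28, was 1.71-fold higher, inside the 2-fold range. Cd83, a maturation marker of dendritic cells, stood at 2.23 without LPS and -1.27 with it and was 11.3-fold lower. Vsir, the checkpoint protein VISTA, was 4.94-fold lower.

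Genes of cell death and inflammasomes were at least 2-fold higher in 12 of 24 and lower in 1. Mefv, the pyrin inflammasome sensor, stood at 0.93 without LPS and 4.20 with it, 9.63-fold higher. Mlkl, the pore protein of necroptosis, stood at -0.47 without LPS and 2.27 with it, 6.7-fold higher. Casp4, the cytosolic LPS receptor of the noncanonical inflammasome (caspase-11), was 2.78-fold higher, Nlrp3 2.22-fold higher and the pore protein Gsdmd 2.12-fold higher. Pycard, the shared adaptor, stood at 3.88 without LPS and 3.43 with it. In the Bcl-2 family and the inhibitors of apoptosis 1 of 20 was at least 2-fold higher, Birc3, an NF-kB target, at -2.10 without LPS and 0.40 with it (5.68-fold). On the lower side were 4 genes, among them the death-promoting Bmf at -0.51 without LPS and -2.79 with it (4.86-fold lower), Bbc3 (PUMA) 2.82-fold lower and Bcl2l11 (BIM) 2.59-fold lower.

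**Figure D5:**
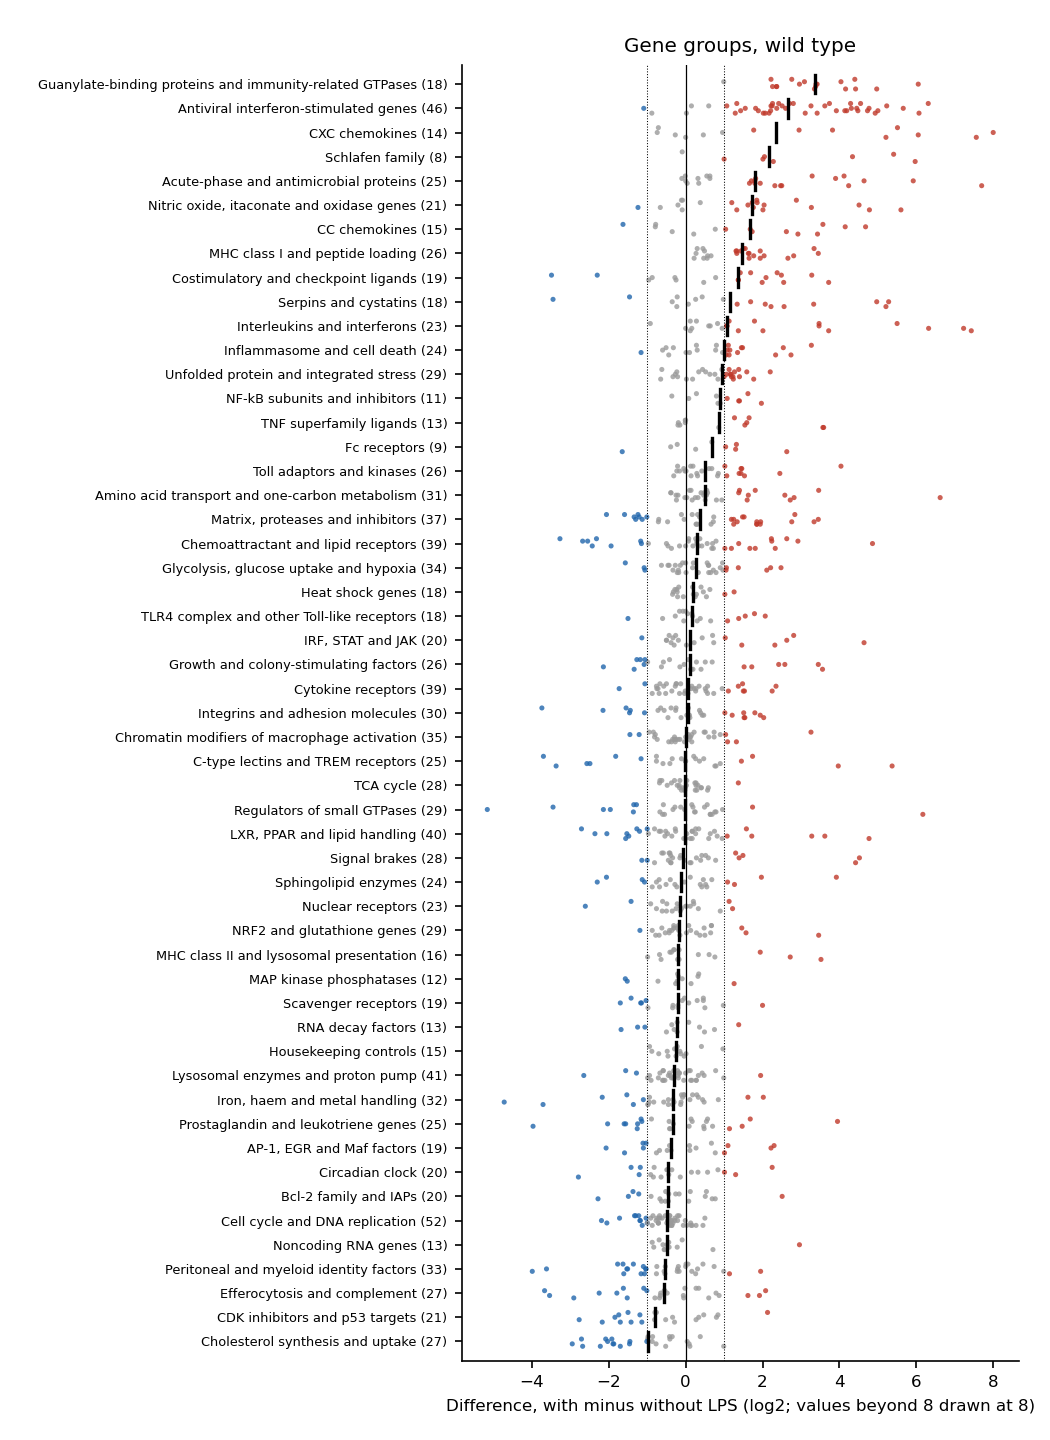
Difference with minus without LPS in wild type (log2, x axis) of each member compared (points) of 53 gene groups (rows, number of members in brackets), ordered by median (black bar); red and blue points are at least 2-fold higher and lower, the dotted lines mark 2-fold and values beyond 8 are drawn at 8. Guanylate-binding proteins (median 3.37) and antiviral interferon-stimulated genes (2.65) lie at the top and cholesterol synthesis (-0.99) at the bottom.

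Among lectins and TREM receptors 4 of 25 were at least 2-fold higher and 6 lower. Clec4e (Mincle), which recognises mycobacterial glycolipid, stood at 3.21 without LPS and 7.18 with it, 15.6-fold higher. Trem3 was well above background with LPS alone and stood at -0.10 there, at least 41.3-fold higher. Lectins of alternatively activated macrophages went both ways. Mgl2 stood at 4.34 without LPS and 6.08 with it, 3.34-fold higher, and its close relative Clec10a at -0.82 without LPS and -4.52 with it, 13-fold lower. Mrc1, the mannose receptor, stood at 3.27 without LPS and -0.10 with it, 10.3-fold lower. Trem2, a lipid-sensing receptor, stood at 6.96 without LPS and 5.14 with it, 3.53-fold lower, and its signalling partner Tyrobp lay at -0.76. Clec5a was dim and differed between the pairs, at -5.43 without LPS and -3.98 with it in wild type (difference 1.45) against a difference of -1.41 in the CD163-deficient pair.

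Of 19 scavenger receptors 1 was at least 2-fold higher and 5 lower. Olr1, a receptor of oxidised low-density lipoprotein, stood at 0.10 without LPS and 2.10 with it, 4.01-fold higher. Marco, which binds bacteria and particles, was bright at 7.47 without LPS and 8.45 with it, 1.97-fold higher. The lower members included lipoprotein and clearance receptors: Colec12 was 3.26-fold lower, Lrp1 2.68-fold, Cd36 2.26-fold and Scarb1 2.22-fold.

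Genes of dead cell uptake and complement lay lower in 9 of 27 at 2-fold and higher in 3. Gas6, which bridges phosphatidylserine on dead cells to TAM receptors, stood at 4.26 without LPS and 0.59 with it, 12.7-fold lower, and Pros1, the other bridging ligand, was 3.07-fold lower. Their receptors Mertk and Axl lay at 0.60 and 0.87. Mfge8, a bridge to integrins, was bright and stood at 8.30 without LPS and 6.78 with it, 2.86-fold lower. Cd55, which restrains complement on host surfaces, stood at -0.70 without LPS and -2.96 with it, 4.77-fold lower. Vsig4, the complement receptor of resident macrophages, stood at 5.64 without LPS and 2.73 with it, 7.54-fold lower. The early complement proteins C2 and C1ra were 4.23-fold and 3.08-fold higher, whereas the C1q chains C1qa, C1qb and C1qc were at -0.54, -1.09 and -0.80. Timd4, a receptor of phosphatidylserine that marks resident cells, was 3.8-fold higher, at -0.34 without LPS and 1.58 with it.

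Among 9 Fc receptors, Fcgr1, the high-affinity receptor of IgG, stood at 1.06 without LPS and 3.69 with it, 6.18-fold higher. Fcgrt, which recycles IgG, stood at 2.78 without LPS and 1.13 with it, 3.14-fold lower. Of 39 cytokine receptors 7 were at least 2-fold higher and 2 lower. Il15ra, which presents interleukin 15 to NK cells, stood at 2.34 without LPS and 4.69 with it, 5.11-fold higher. Ifngr1 was 3.31-fold lower and Ifnar2, a chain of the type I interferon receptor, 2.89-fold higher.

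Receptors for chemoattractants, nucleotides and lipids had 11 of 39 at least 2-fold higher and 8 lower. Gpr84, a receptor of medium-chain fatty acids, stood at 0.13 without LPS and 4.99 with it, 29.1-fold higher. The adenosine receptors Adora2a and Adora2b, which restrain inflammation, were 4.73-fold and 6.17-fold higher. Hcar2, a receptor of butyrate and niacin, was 4.7-fold higher. Among the lower members were receptors of chemokines. Cxcr3 stood at -0.54 without LPS and -3.22 with it, 6.42-fold lower. Cx3cr1 stood at 0.64 without LPS and -1.78 with it, 5.37-fold lower, and Cxcr4 at 0.99 without LPS and -1.33 with it, 5.01-fold lower (difference -2.32, and -4.31 in the CD163-deficient pair).

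Among 30 integrins and adhesion molecules 8 were at least 2-fold higher and 6 lower. Icam1, an NF-kB target that binds leukocyte integrins, stood at -0.74 without LPS and 1.29 with it, 4.08-fold higher. The fibronectin receptor chains Itga5 and Itgb1 were 3.82-fold and 3.47-fold higher. Cd93 stood at 4.97 without LPS and 2.82 with it, 4.43-fold lower, and the tetraspanin Cd9 was 2.75-fold lower. In a list of regulators of small GTPases the extremes belonged to 1 family. Rasgrp1, an exchange factor that couples diacylglycerol to Ras, stood at -3.82 without LPS and 2.35 with it. It was 72-fold higher by its brightest probe (probes from 3.63 to 6.17), which lies at chr2:117105803-117105862 of mm9. Rasgrp3, its relative, stood at 1.12 without LPS and -4.04 with it, 35.7-fold lower, the largest lower difference among genes well above background on both arrays, with its probe at chr17:75928310-75928369. On the CD163-deficient pair their differences were 6.01 and -4.69. Rgs1, Rgs2 and Rgs18, which shorten G protein signals, were 3.88-fold, 10.9-fold and 4.41-fold lower.

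Of 37 matrix, protease and coagulation genes 15 were at least 2-fold higher and 8 lower. Serpinb2, the plasminogen activator inhibitor 2, stood at 2.89 without LPS and 6.34 with it, 10.9-fold higher. Procr, the receptor of protein C, stood at 2.78 without LPS and 5.62 with it, 7.14-fold higher. Mmp14, Mmp13 and Mmp9, proteases of collagen and gelatin, were 3.59-fold, 3.83-fold and 2.79-fold higher. Mmp2, better known from fibroblasts, was 3.61-fold higher. On the lower side Timp2, a metalloprotease inhibitor, stood at 6.66 without LPS and 5.07 with it, 3-fold lower. The 15 markers of mesothelial cells and fibroblasts were detected on both arrays, with a summed level of 66.1 without LPS and 80.5 with it. Col1a2 was the brightest, and the other markers summed to 36.6 and 38.5. Past 2-fold were 2 on the higher side (Dcn and Pdgfrb) and 6 on the lower (Msln, Upk3b, Upk1b, Krt18, Wt1 and Lrrn4). The part of mesothelial cells and fibroblasts in the matrix values was not tested. Serpins and cystatins were at least 2-fold higher in 9 of 18. Cst7, an inhibitor of cathepsins, stood at -2.97 without LPS and 2.01 with it, 31.4-fold higher, and the stefin Stfa2l1 at -5.13 without LPS and 0.08 with it, 37-fold higher, within a cluster of close copies. Serpinb1a, an elastase inhibitor, stood at 2.18 without LPS and -1.26 with it, 10.9-fold lower.

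Of 34 glycolysis and hypoxia genes 6 were at least 2-fold higher and 3 lower, with a median of 0.26. Pfkfb3, which makes the activator of phosphofructokinase, stood at 1.93 without LPS and 4.04 with it, 4.32-fold higher. Slc2a6, a glucose transporter family member of phagocytes, stood at 3.23 without LPS and 5.44 with it, 4.62-fold higher, while Slc2a1 lay at 0.60. Slc16a3, the lactate exporter, was 2.08-fold higher. Enzymes along the pathway differed to varying degrees. Pfkl, a phosphofructokinase, was 2.58-fold higher, at 0.89 without LPS and 2.25 with it. The bright enzymes lay within 2-fold, Pgk1 at a difference of 0.97, Eno1 at 0.59, Gapdh at 0.01, Aldoa at -0.14 and Pkm at 0.00. In the Krebs cycle 27 of 28 genes lay within 2-fold, the exception being Pcx, pyruvate carboxylase, at -1.42 without LPS and -0.05 with it (2.59-fold higher). Idh1 was 1.6-fold lower.

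Cholesterol synthesis and uptake had the lowest median of the groups, -0.99 (-1.46 on the CD163-deficient pair), with 13 of 27 at least 2-fold lower and 0 higher. Insig1, a target and brake of the sterol factor SREBP-2, stood at 0.02 without LPS and -2.93 with it, 7.72-fold lower. Idi1, an isomerase of the isoprenoid steps, stood at 2.07 without LPS and -0.60 with it, 6.39-fold lower. Along the path from acetyl-CoA, Hmgcs1 was 4.65-fold lower by its brightest probe (probes from -2.22 to -0.41), Fdps 3.7-fold, Sqle 3.79-fold, Cyp51 3.24-fold and Msmo1 4.1-fold. Of 19 promoters in this list 1, that of Hmgcs1, held the sterol regulatory element core.

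Among 40 genes of lipid handling 6 were at least 2-fold higher and 9 lower. Acsl1, which activates fatty acids, stood at 2.91 without LPS and 6.53 with it, 12.3-fold higher. Dgat2, which makes triglyceride, stood at -1.54 without LPS and 1.74 with it, 9.72-fold higher. The cholesterol exporters Abcg1 and Abca1 were 2.11-fold and 1.93-fold higher. The fatty acid carriers differed: Fabp3 was 3.29-fold higher, at 1.69 without LPS and 3.41 with it, and Fabp5 2.96-fold lower. Fabp4 stood at 5.74 without LPS and 3.03 with it, 6.53-fold lower. Lipa, the lysosomal acid lipase, was 4.15-fold lower, and Lpl was 2.78-fold lower, while the triglyceride lipase Pnpla2 lay at -0.26. Apoe, among the brightest genes, stood at 8.48 without LPS and 7.80 with it. Of 24 sphingolipid genes, Smpdl3b, a phosphodiesterase of the outer membrane that dampens Toll-like receptor signals, stood at -1.42 without LPS and 2.50 with it, 15.1-fold higher, and Cers4, a ceramide synthase, at -0.15 without LPS and -2.21 with it, 4.17-fold lower.

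Iron and metal genes were lower in 6 of 32 at 2-fold and higher in 2. Slc46a3, a lysosomal transporter, stood at 3.68 without LPS and -1.04 with it, 26.4-fold lower, with its probe at chr5:148690145-148690204 of mm9. Slc40a1 (ferroportin), the exporter of iron, stood at 1.12 without LPS and -2.59 with it, 13.1-fold lower. Tfrc, the transferrin receptor, stood at 2.30 without LPS and 0.13 with it, 4.51-fold lower. Thus export and transferrin uptake genes were both lower. Hmox1, which breaks down haem, stood at 4.29 without LPS and 5.91 with it and was 3.07-fold higher, and Slc39a14, a zinc and iron importer, was 4.07-fold higher. The ferritin chains Fth1 and Ftl1 were bright and lay at -0.30 and -0.33.

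Amino acid transport and folate genes were at least 2-fold higher in 10 of 31 and lower in 0. Slc7a11, the cystine importer whose promoter is shown above, stood at -2.95 without LPS and 0.52 with it, 11-fold higher. Slc1a2, a glutamate transporter, was well above background with LPS alone and stood at 0.86 there, at least 98-fold higher. Mthfd2, a mitochondrial folate enzyme, stood at -0.68 without LPS and 2.13 with it, 7.05-fold higher. Asns and Chac1, targets of the stress factor ATF4, were 3.1-fold and 3.51-fold higher. The C/EBP-ATF element stood in 6 of 27 promoters of this list, against 3.53% of all promoters. They were those of Slc7a11, Asns and Chac1 and those of Slc7a7, Pycr1 and Got1. The latter lay within 2-fold, at 0.47, -0.24 and -0.25. The promoters of Mthfd2 and Slc1a2 held no match to the element.

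Genes of the unfolded protein and integrated stress responses were at least 2-fold higher in 13 of 29, with 0 lower and a median of 0.94. Hspa5 (BiP), the main chaperone of the endoplasmic reticulum, stood at 4.77 without LPS and 6.01 with it, 2.36-fold higher. Trib3 stood at 0.38 without LPS and 2.58 with it, 4.6-fold higher, and Ddit3 (CHOP) was 2.34-fold higher. The sensors Atf6 and Eif2ak3 (PERK) lay within 2-fold at -0.62 and -0.65. NRF2 and glutathione genes had 3 of 29 at least 2-fold higher and 1 lower. Prdx5, a peroxiredoxin, stood at 6.33 without LPS and 7.79 with it, 2.75-fold higher, Gpx1 was 2.28-fold lower and Nqo1, a common NRF2 target, lay at 0.13. Of 18 heat shock genes 16 lay within 2-fold, and the inducible Hspa1a was dim at -2.55 without LPS and -1.53 with it. Lysosomal enzymes and the proton pump lay within 2-fold in 37 of 41, near the 88.5% of all genes. In level 29 were lower, where 13084 of all 26716 genes were. Atp6v0a1, a subunit of the pump, stood at 4.89 without LPS and 2.24 with it, 6.26-fold lower by its brightest probe, with its probes from -2.65 to -0.48.

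Cell cycle and replication genes were lower in level in 45 of 52, where 13084 of all 26716 genes were. Of the group 11 were at least 2-fold lower and 0 at least 2-fold higher. The median was -0.48 (-0.59 on the CD163-deficient pair). Ccnd1 (cyclin D1), which drives entry into the cycle, stood at 3.08 without LPS and 1.03 with it, 4.15-fold lower. E2f2 stood at -0.32 without LPS and -2.51 with it, 4.57-fold lower. Mki67, the proliferation marker, was 1.37-fold higher, at 1.75 without LPS and 2.20 with it, and Top2a lay at -0.44. Cell cycle inhibitors and p53 targets were also lower, 9 of 21 at least 2-fold. Sesn1, a p53 target that restrains mTORC1, stood at 3.50 without LPS and 0.73 with it, 6.81-fold lower. Cdkn2c was 3.24-fold lower and Cdkn1a (p21) lay at -0.29. Gadd45b, an NF-kB target, stood at 0.45 without LPS and 2.58 with it, 4.39-fold higher.

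In the clock list Dbp, an output gene of the circadian oscillator, stood at 3.32 without LPS and 0.53 with it, 6.93-fold lower. Nr1d2 (REV-ERB beta) was 2.67-fold lower and Tef 2.31-fold lower. Per2 stood at -3.96 without LPS and -1.71 with it, 4.75-fold higher, and the core activators Arntl and Clock lay within 2-fold at -0.14 and -0.44. Of 35 chromatin modifiers 29 lay within 2-fold. Dnmt3l, a cofactor of DNA methylation known from germ cells, stood at -1.61 without LPS and 1.65 with it, 9.55-fold higher, and Hdac5 was 2.73-fold lower. Of 13 noncoding RNA genes Mirt2, an LPS-inducible long noncoding RNA, stood at -4.91 without LPS and -1.95 with it, 7.79-fold higher, and Neat1 and Malat1 lay at -0.83 and -0.49.

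The median difference was below 0 in the brightest classes of genes. The 479 genes with a mean level of 6 or more had a median difference of -0.40, and the 1191 genes between 4 and 6 one of -0.27, against -0.07 and -0.01 in the CD163-deficient pair. Past 2-fold the order was the opposite, with 35 higher and 14 lower in the first class and 117 higher and 55 lower in the second. Groups of bright genes are given beside that. All 79 cytosolic ribosomal protein genes lay within 2-fold, 74 of them lower, with a median of -0.61 (-0.26 in the CD163-deficient pair). Housekeeping genes had a median of -0.24 (-0.03 in the CD163-deficient pair), with 12 of 15 lower. Actb stood at 8.87 without LPS and 8.62 with it, and Hprt at 3.66 without LPS and 2.78 with it. The 37 subunits of respiratory complex I had a median of -0.23, and of 0.12 in the CD163-deficient pair. The part of the array's brightness scale in these small shifts was not tested.

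Markers of other cells were summed on a linear scale. The 13 B cell markers summed to 3.13 without LPS and 2.73 with it, and to 1.9 and 1.99 without Cd22, the brightest. The sum of the 12 T and NK cell markers is given above. Of 10 mast cell markers Tpsab1, Fcer1a and Ms4a2 were not detected on either array. Hdc, which makes histamine, stood at -3.88 without LPS and -0.22 with it, 12.6-fold higher. Eosinophil markers other than Siglec5, which is also listed as Siglecf, summed to 0.766 without LPS and 0.589 with it. Siglec5 itself stood at 0.07 without LPS and -2.36 with it, 5.39-fold lower. Erythroid and platelet markers summed to 73.2 and 143, a sum that is mostly Pf4, a chemokine that stood at 6.18 without LPS and 7.14 with it. The other markers of that list summed to 0.519 and 2. Klf1 was not detected. Gp6, the collagen receptor of platelets, was well above background with LPS alone and stood at 0.49 there, at least 75.8-fold higher (difference 6.88 in the CD163-deficient pair). Markers of large peritoneal macrophages went both ways, 5 of 20 past 2-fold on each side. Prg4, the lubricant proteoglycan, stood at -0.78 without LPS and 3.92 with it, 25.9-fold higher.

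Among the 20 genes furthest from 0 in each direction some belong to no group above. Ms4a4b, a membrane protein of the MS4A family, stood at -2.89 without LPS and 2.24 with it, 35.1-fold higher by its brightest probe (probes from 1.44 to 5.13). On the lower side Mamdc2, a secreted proteoglycan, stood at 2.32 without LPS and -1.94 with it, 19.2-fold lower. Pcp4l1 stood at -1.04 without LPS and -5.01 with it, 15.6-fold lower. Aqp5, a water channel, stood at -0.44 without LPS and -3.93 with it, 11.3-fold lower by its brightest probe (probes from -3.49 to -1.91). The hydrolase Cmbl was 12.6-fold lower. In these 5 genes the CD163-deficient pair gave differences of 5.32, -5.21, -3.72, -3.56 and -3.78. Of genes well above background on 1 array, Tarm1, a receptor of the leukocyte receptor complex on myeloid cells, was at least 46.8-fold higher, and stood at -0.21 with LPS. Il23r, the interleukin 23 receptor, was at least 18.2-fold higher, at -1.57. Calcr, the calcitonin receptor, was at least 11.9-fold higher. In the other direction Rcan2, an inhibitor of calcineurin, stood at -2.19 without LPS and was at least 20.4-fold lower. Slc9a9, an endosomal proton exchanger, stood at -2.32 without LPS and was at least 12.6-fold lower. In the CD163-deficient pair Rcan2 and Slc9a9 gave -3.21 and -4.37. The others of the 10 largest lower bounds gave differences from -2.53 to 2.38 there or were not compared. Of 12 genes at least 8-fold lower in wild type with a level under -2 on both wild-type arrays, 5 were at least 2-fold lower there. Another 2 were at least 2-fold higher, and the median was -0.07.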

How the data were processed

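RNA from 4 cultures was hybridised to 1-colour Agilent mouse arrays after Low input Quick Amp labelling. The authors deposited scanner output in which intensity was extracted, background-subtracted and flagged with Agilent Feature Extraction, version 9.5.1.1 per the submitters' processing notes and 10.7.1.1 per the file headers. The deposited value table held intensity on a linear scale and matched quantile normalization of the 4 arrays (median absolute log2 difference at most 9.5e-05), with a median of 175.3 in each array. It served as an alternative, and its centring and scale beyond that match are not given in the sources used here.

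From the scanner files, log2 of the processed intensity of non-control probes was taken minus the 75th percentile of the array, with the spots of a probe averaged. A gene, by the name in the files, was represented by its brightest probe over the 2 wild-type arrays and was compared when well above background on at least 1. For a gene not well above background on 1 array the fold is a lower bound. It sets the level on the array with signal against the higher of the lowest signal among probes well above background and the probe's own level. Probe positions are those of the files (mm9), and promoters are RefSeq's (GRCm38.p6), and neither was converted. With 1 array a group there is no test, and array number limits the precision.

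There were 53 gene lists, 11 marker lists and 13 families. Of 1403 listed symbols 1388 were matched and 1358 compared. The members and lists were chosen with earlier results of these data known. Named genes are list members, first those furthest from 0, the 20 furthest from 0 on each side by measured difference and the 10 with the largest bound. Clone and predicted names and genes whose probes differed in sign were passed over. Some list members are not reported here. The alternatives were 8 planned ones and 2 chosen after seeing the data. The computation was tested on simulated data. Python 3.11.15 with numpy 2.4.6, pandas 2.3.3 and matplotlib 3.10.9, and R 4.3.3 with limma 3.58.1 for normexp, were used.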

Additional observations from a re-analysis of the deposited data

Results flagged for a closer look

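Clec5a, a lectin-type receptor that signals through DAP12, differed in opposite directions between the genotypes. Its difference with minus without LPS was 1.45 (log2) in wild type and -1.41 in the CD163-deficient pair. Each pair is 1 array against 1, so this contrast was not tested, and the gene was dim on the wild-type arrays.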

How the results depend on the processing

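The counts of genes at 2-fold and 4-fold were 1718 and 519 higher and 1366 and 278 lower. Normexp background correction gave 1054 and 372 higher and 975 and 106 lower and moved the median of all genes by -0.13. The cause was not tested. Requiring a level of at least -2 gave 1135 and 439 higher and 915 and 179 lower, with fewer genes compared (14098). The other planned settings were quantile normalization, median scaling, the mean of all probes, the deposited value table, the brightest probe over 4 arrays, detection on both arrays and no detection filter. They kept each of the 4 counts within 1.5 times. So did the measured difference in place of the bound, which like the level was chosen after seeing the data. Of 77 medians of lists and families, 8 moved with normexp, 3 with the mean of all probes, 2 without a detection filter and 0 with the other settings run. With normexp the median of the TNF family ligands was 0.00, that of the interleukins and interferons 0.62 and that of the Fc receptors 0.01. Of 330 named genes run through these settings 69 moved by over 0.24 (log2) with normexp and 41 with the mean of all probes. All 263 of these past 2-fold kept their direction with both, and 252 and 258 stayed past 2-fold. No replicate could be left out, since each group has 1 array. No paired analysis was possible because each group holds 1 array. Low signal limits dim genes, for which the second pair of arrays repeated the direction less often.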

Other observations

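Families taken by symbol add groups not described above. Of 48 proteasome subunits 43 were higher in level with LPS, where 12973 of all 26716 genes were. Of the subunits 10 were at least 2-fold higher and 0 were 2-fold lower, with a median of 0.50 (0.77 on the CD163-deficient pair). The inducible subunits Psmb8, Psmb9 and Psmb10 are among them. Of 17 aminoacyl-tRNA synthetases, which charge transfer RNA with amino acids, 15 were higher in level and 3 past 2-fold, with a median of 0.53 (0.67 on the CD163-deficient pair). The 24 subunits of the vacuolar proton pump had a median of -0.04 and the 55 Rab GTPases one of -0.06.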
